A study of Mus musculus with 8 samples.

Results

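Open chromatin at 10 genes of transforming growth factor beta (TGF-beta) and bone morphogenetic protein (BMP) signalling was compared between natural killer (NK) cells of 2 HSF1 genotypes. The genes were chosen by name: the ligand gene Tgfb1, the receptor genes Tgfbr1, Tgfbr2 and Bmpr1a, the signal transducer genes Smad2, Smad3 and Smad4, and the inhibitor genes Smad7, Ski and Skil. They are 10 of 21887 protein-coding genes on the mouse chromosomes. A called peak belonged to a gene when the nearest end of any protein-coding gene to its midpoint was an end of that gene, within 50 kb. This gave 651 of the 364277 peaks in 8 lists, which merged into 95 of 55946 regions. Such a link rests on distance alone and leaves the gene under control of a region unknown.

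The assay was ATAC-seq, in which a transposase tags open DNA. Each library came from NK cells (CD49b+, CD3e-) sorted from the spleen of 1 mouse at steady state. Wild-type HSF1 was carried by the mice of 4 libraries, called WT 4, 5, 6 and 7 after their labels. The other 4, called MUT 26, 27, 28 and 29, came from mice whose HSF1, the transcription factor of the heat shock response, carries alanine in place of serines 303 and 307. The series' design text calls the mutant mice HSF1-enhanced. The labels used here give no strain, age, sex, litter or batch, so any such difference between the groups cannot be told apart from the genotype.

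TGF-beta is a cytokine that restrains NK cell activation and can push NK cells towards a tissue-resident type. Its ligand binds a type II receptor, which activates a type I receptor. The type I receptor phosphorylates SMAD2 and SMAD3, which enter the nucleus with SMAD4, while BMP receptors signal through SMAD1, SMAD5 and SMAD9. SMAD7 blocks the receptors, and SKI and SKIL hold SMAD complexes in a repressed state.

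The lists held 42695 to 46102 peaks in WT and 44333 to 49627 in MUT, with 77 to 84 and 78 to 87 peaks at the 10 genes. The lists carry no read counts, so depth is unknown, and a peak missing from a list may be open chromatin that fell under the caller's threshold. In bulk cells, fewer open cells and less openness per cell cannot be told apart. Of 10 NK cell marker genes, 9 had a peak within 1 kb of a gene end in all 8 libraries, the exception being Fcgr3. The same held for 5 of 8 T cell markers (Cd3e, Cd3d, Cd3g, Cd5 and Cd28), 1 of 8 B cell markers, 3 of 10 myeloid markers, 3 of 5 type 1 innate lymphoid cell markers and 1 of 6 erythroid and platelet markers. Summed peak length at the NK markers was 36444 to 38512 bp in WT and 35029 to 39335 bp in MUT. At the T cell markers it was 7859 to 8628 and 8179 to 10708 bp, and at the B cell markers 1983 to 3187 and 2289 to 3812 bp. The myeloid markers had 5639 to 6608 and 6031 to 7894 bp, and the type 1 innate lymphoid cell markers 7287 to 8683 and 7613 to 9457 bp. The erythroid and platelet markers had 2367 to 2924 and 2373 to 2907 bp. The part of other cells in the results below was not tested.

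All 10 genes had a peak within 1 kb of a gene end in 8 of 8 libraries. Of their 95 regions, 67 had a peak in every library, 20 in 2 to 7 libraries and 8 in 1 library. Among the 87 regions with a peak in at least 2 libraries, called consensus regions, 77.0% were in all 8, beside 68.9% of the 50044 consensus regions of the series. By place, 14 of the 95 regions lay within 1 kb of a gene end, 56 deeper in a gene body and 25 between genes. Exons and introns were not used here. For each region the authors' score was turned into a percentile within its own list, where 100 is the strongest peak. The median of the regions' mean percentiles was 44.0, as for all consensus regions (44.0).

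**Figure D1:**
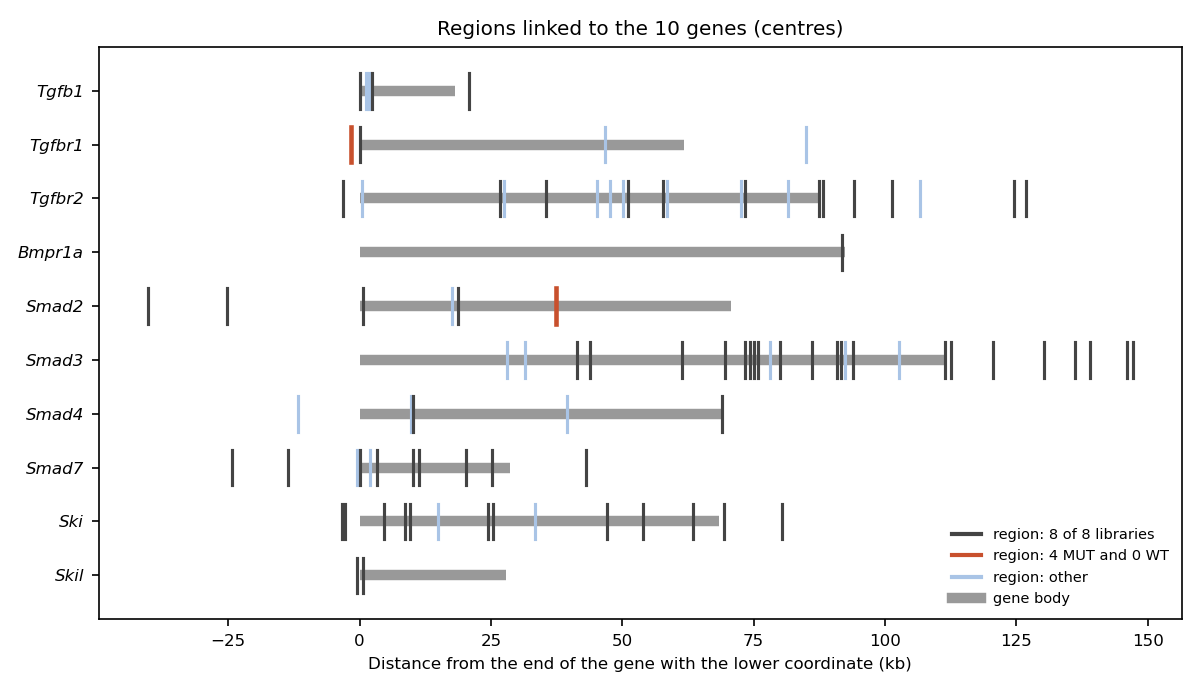
Centres of the 95 regions (vertical lines) along each of the 10 genes (grey bars), as distance in kb from the gene end with the lower coordinate. Dark lines are regions in 8 of 8 libraries, orange lines the 2 with a peak in 4 MUT and 0 WT libraries, and pale lines all others. Smad3, Tgfbr2 and Ski carry long series of regions, and Bmpr1a has 1.

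The genes differed widely in how much open chromatin surrounded them. Linked length, the summed width of the peaks linked to a gene, was set against gene length to compare genes. Linked length also counts peaks outside the gene, and its reach depends on where the next gene ends lie. The values below are thus not densities within a gene. Smad7 had 210.0 bp of peaks per kb of gene, Tgfb1 149.8, Ski 105.6, Smad3 89.2, Tgfbr2 86.6, Skil 54.8, Smad2 41.0, Smad4 28.6, Tgfbr1 19.0 and Bmpr1a 7.43 (means of 8 libraries). Smad3 (chromosome 9, 63646766 to 63757994) had 24 consensus regions, Tgfbr2 19, Ski 14 and Smad7 10, against a median of 2 over the 14254 genes tested. By linked length Smad3 stood at the 99.9 percentile of those genes, Tgfbr2 at 99.7, Ski at 99.5 and Smad7 at 98.8, while Bmpr1a stood at 27.9.

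The promoter sequences of the 3 receptor genes are shown because cover by called peaks did not overlap between the genotypes at 2 of them. RefSeq windows of this build (GRCm38.p6), from 250 bases before a start site to 50 bases from it, matched 6 of the 10 genes with 7 windows. In the Bmpr1a window (chr14:34502497-34502796, minus strand), capitals mark the 138 bases under a peak in all 4 MUT libraries. In the Tgfbr2 window (chr9:116175314-116175613, minus strand), capitals mark the 181 bases under a peak in all 8 libraries. In the Tgfbr1 window (chr4:47352972-47353271, plus strand), all of which was under a peak in all 8 libraries, capitals mark the motif GGCGCC.
Bmpr1a: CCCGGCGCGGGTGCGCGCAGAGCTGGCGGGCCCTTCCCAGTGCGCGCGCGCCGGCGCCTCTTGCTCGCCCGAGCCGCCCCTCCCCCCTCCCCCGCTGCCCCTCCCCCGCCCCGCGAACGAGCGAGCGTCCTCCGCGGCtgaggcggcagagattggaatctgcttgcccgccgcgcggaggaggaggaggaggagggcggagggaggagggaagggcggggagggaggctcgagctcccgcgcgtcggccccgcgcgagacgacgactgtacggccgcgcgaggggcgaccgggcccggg
Tgfbr2: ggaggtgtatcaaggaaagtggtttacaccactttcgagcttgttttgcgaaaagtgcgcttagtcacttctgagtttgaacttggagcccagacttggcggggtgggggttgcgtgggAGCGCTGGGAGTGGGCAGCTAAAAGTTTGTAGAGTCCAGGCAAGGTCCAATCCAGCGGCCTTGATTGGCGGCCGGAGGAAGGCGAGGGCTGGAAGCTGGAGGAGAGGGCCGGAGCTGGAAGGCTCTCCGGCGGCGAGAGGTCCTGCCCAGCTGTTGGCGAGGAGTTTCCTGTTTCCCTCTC
Tgfbr1: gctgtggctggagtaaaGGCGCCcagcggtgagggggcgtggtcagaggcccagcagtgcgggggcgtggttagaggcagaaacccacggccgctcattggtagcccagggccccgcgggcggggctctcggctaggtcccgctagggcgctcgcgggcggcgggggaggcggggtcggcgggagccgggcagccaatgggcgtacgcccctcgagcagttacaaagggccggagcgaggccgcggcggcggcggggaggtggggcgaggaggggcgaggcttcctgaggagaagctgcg

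The windows were searched on both strands for motifs of SMAD proteins and of heat shock factors. GGCGCC, a motif bound by SMADs in BMP signalling, occurred once each in the windows of Bmpr1a, Tgfbr1 and Ski, and in 15.3% of 21263 promoter windows of protein-coding genes. The SMAD element CAGAC occurred in the Tgfbr2 window and in a second Tgfbr1 window (chr4:47385966-47386265), which was not under a peak in any library (48.4% of all windows), and the palindrome GTCTAGAC in none of the 7 (0.226%). The heat shock element pair TTCNNGAA occurred in that uncovered Tgfbr1 window (7.61% of all), and GAANNTTC in none (7.21%). These are matches of letters, and neither a match nor its absence shows whether a factor binds.

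At Bmpr1a (chromosome 14, 34411061 to 34503336), which encodes a type I BMP receptor, the only linked region was narrower in MUT. Linked length was 965, 984, 771 and 791 bp in WT 4, 5, 6 and 7 and 482, 585, 572 and 333 bp in MUT 26, 27, 28 and 29, so all 4 MUT values lay below all 4 WT values. Length fell by 0.68 on the log2(bp + 200) scale (SE 0.111, 95% interval -0.93 to -0.43, limma adjusted p = 0.0390), from 878 ± 112 to 493 ± 116 bp (SD, n = 4 each). Of the 10 genes, Bmpr1a alone passed. Over all 14254 genes, 0.232% passed as lower in MUT and 0.442% as higher. The 10 genes were chosen with earlier results of these data known, those at Bmpr1a and Tgfbr1 among them. The shares over all genes are therefore no independent yardstick for these 10.

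The call at Bmpr1a was not stable. With only the strongest peak of each region in each library, an alternative added after the data were seen, it did not pass (log2 -0.57, limma adjusted p = 0.236). With 1 library left out at a time it passed in 1 of 8 fits, that without MUT 29, and missed the threshold in the other 7 (limma adjusted p of 0.0574 to 0.122). It also missed with equal numbers of peaks (0.0612), within 10 kb (0.0701), without scaling (0.132) and with the upper 50% of each list (0.349).

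**Figure D2:**
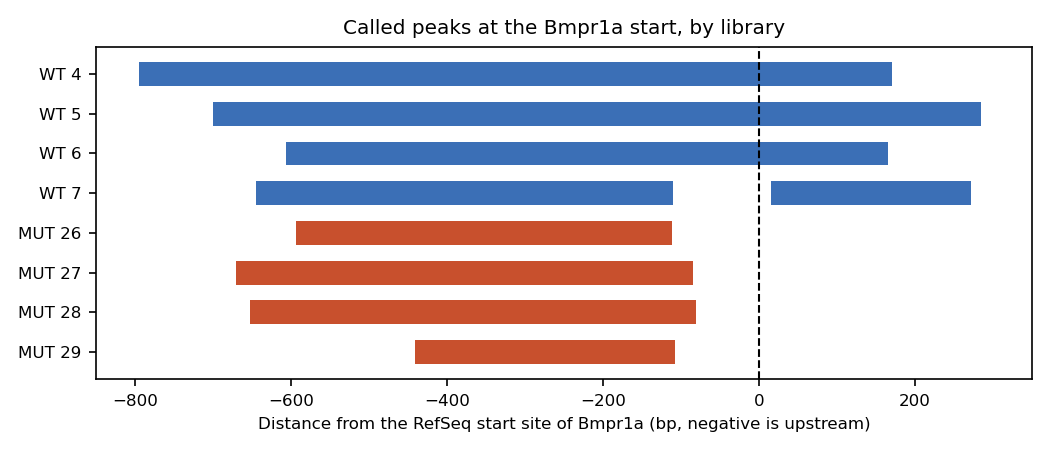
Called peaks at Bmpr1a in each library (bars), against the distance in bp from the RefSeq start site (dashed line, negative is upstream). Peaks of WT 4, 5 and 6 span the start site, WT 7 has a main peak before it and a weak peak after it, and the peaks of all 4 MUT libraries end upstream of it.

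At Bmpr1a the difference in width lay mainly on the downstream side of the peak, and in MUT 29 on the upstream side too. The annotated end of the gene (34503336) lies 790 bp upstream of the window's start site (34502546), so "before" that site is still largely within the annotated gene. In WT 4, 5 and 6 a single peak covered this start site and reached 169, 283 and 164 bp past it. WT 7 had 2 peaks. Its main peak (535 bp, percentile 59.1) ended 111 bp before the start site, as the MUT peaks did, and only a weak second peak (256 bp, percentile 10.5) lay past it, from 16 to 271 bp. In MUT 26, 27, 28 and 29 the peak ended 113, 86, 82 and 109 bp before the start site, at the capitals' end in the sequence above or slightly beyond. The window was 100%, 100%, 100% and 58.0% covered in WT and 46.0%, 55.0%, 56.3% and 47.3% in MUT. The groups do not overlap, as for 1.32% of the 10870 promoter windows with peaks in at least 2 libraries in the direction of less cover in MUT. Under the strongest peak alone, WT 7 had 46.7% of the window covered and a width of 535 bp, both inside the MUT range, so the separation of the groups in cover and in length rests on the weak second peak of WT 7. The upstream edges overlapped: 795, 700, 606 and 645 bp before the start site in WT and 594, 670, 653 and 441 bp in MUT. Score percentiles of the strongest peak overlapped too, at 76.3, 72.3, 59.2 and 59.1 in WT and 66.6, 69.3, 66.3 and 70.1 in MUT.

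Tested as a region rather than as a gene, the Bmpr1a peak did not pass (log2 difference in width -0.88, SE 0.159, limma adjusted p = 0.170). That fit took the 34461 regions with a peak in all 8 libraries, without a pseudocount.

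**Figure D3:**
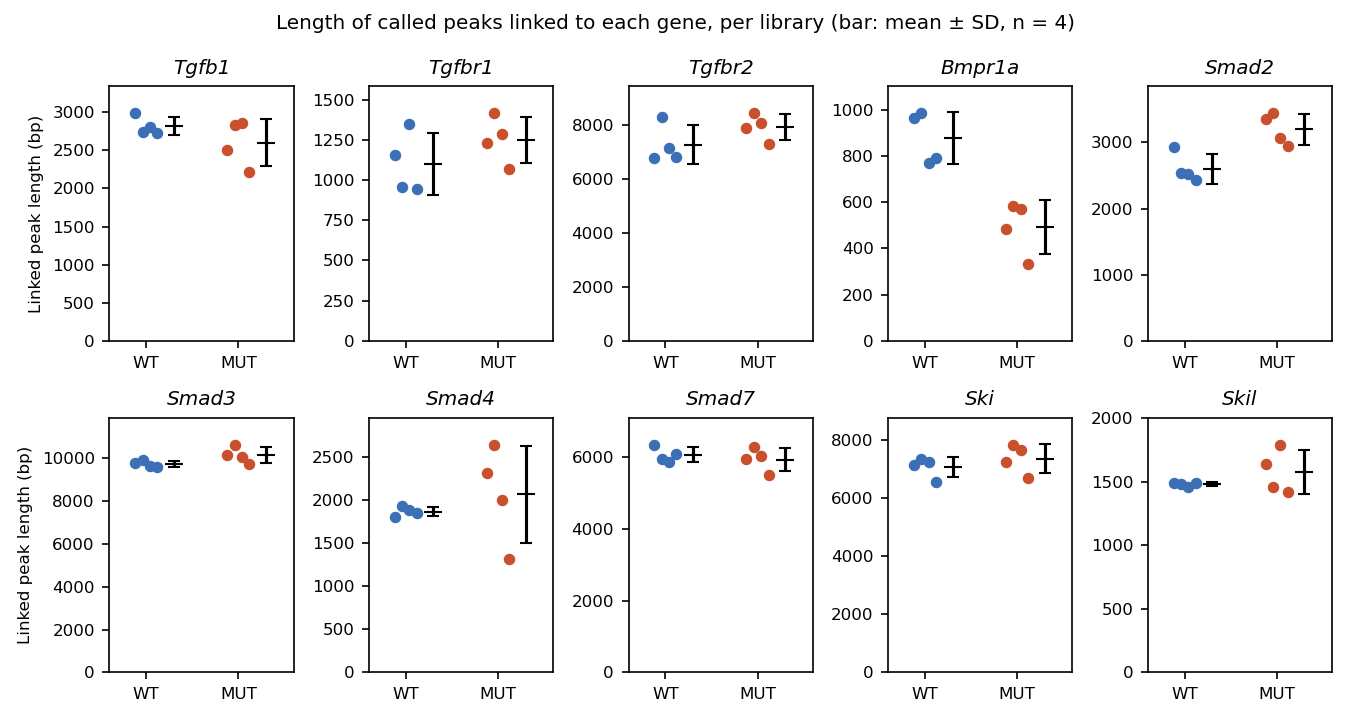
Linked length in bp of each of the 10 genes in every library, WT (blue) and MUT (orange), with the mean ± SD of 4 libraries as black bars and all axes from 0. The groups separate at Bmpr1a and, narrowly, at Smad2, and they overlap at the other 8 genes.

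Tgfb1 (chromosome 7, 25687002 to 25705077) encodes the ligand TGF-beta 1. Linked length was 2984, 2736, 2808 and 2729 bp in WT and 2501, 2829, 2857 and 2213 bp in the MUT libraries (log2 -0.15, SE 0.0512, limma adjusted p = 0.315). MUT 26 and 29 were below all WT libraries, and MUT 27 and 28 were within their range. The region over the start site, whose centre was also 608 bp from the nearest end of B9d2, was 854 to 900 bp wide in WT and 803 to 861 bp in MUT. Its strength was modest, with a mean percentile of 27.9, while a region between Tgfb1 and Ccdc97 (25707289 to 25708294) stood at 63.1 and was 914 to 1001 bp wide in WT and 938 to 969 bp in MUT.

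Tgfbr2 (chromosome 9, 116087695 to 116175363) encodes the type II receptor that binds the ligand. Its 21 regions summed to 6779, 8310, 7140 and 6815 bp in WT and 7890, 8429, 8059 and 7282 bp in the MUT libraries (log2 0.09, SE 0.0549, limma adjusted p = 0.620). WT 5 lay inside the MUT range, and the other 3 WT libraries were below all MUT libraries. The promoter window was 90.0%, 60.3%, 96.0% and 90.0% covered in WT and 100%, 100%, 99.0% and 100% in MUT. These groups do not overlap, as for 0.423% of windows in the direction of more cover in MUT. The peak over the start site itself (116174464 to 116175761) was 1019 to 1130 bp wide in WT and 1101 to 1281 bp in MUT, and its width did not pass (limma adjusted p = 0.622). Its score percentiles went the other way, at 84.2 to 85.4 in WT and 79.5 to 82.5 in MUT. The strongest Tgfbr2 region lay in the gene body (116122867 to 116123503) at a mean percentile of 88.6, with widths of 547 to 623 bp in WT and 606 to 637 bp in MUT.

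Tgfbr1 (chromosome 4, 47353222 to 47414926) encodes the type I receptor of TGF-beta. Linked length was 1158, 954, 1346 and 945 bp in WT and 1229, 1415, 1288 and 1066 bp in the MUT libraries (log2 0.13, SE 0.0977, limma adjusted p = 0.672). Its start was among the strongest open sites of the 10 genes, with a mean percentile of 91.1, and was 945 to 958 bp wide in WT and 840 to 1063 bp in MUT. Upstream of it, a small region (47351483 to 47351752, 1604 bp before the start site) had a peak in 4 of 4 MUT libraries, 209, 252, 225 and 226 bp wide, and in 0 of 4 WT libraries. It was a weak region, at percentiles of 3.31 to 4.93 of the MUT lists, and with equal numbers of peaks per list it was no longer in all 4 MUT libraries.

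Smad2 (chromosome 18, 76241090 to 76311748) encodes a transducer that the type I receptor phosphorylates. Linked length was 2932, 2532, 2514 and 2430 bp in WT and 3348, 3438, 3063 and 2943 bp in MUT. All 4 MUT values lay above all 4 WT values, the nearest pair being WT 4 and MUT 29. The difference did not pass over all genes (log2 0.24, SE 0.0592, 95% interval 0.11 to 0.38, limma adjusted p = 0.161). Groups that do not overlap, higher in MUT, were found at 3.04% of all genes tested, and lower in MUT at 3.7%. Of the 10 genes Smad2 was the 1 of the first kind and Bmpr1a the 1 of the second.

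At Smad2 the wider peaks in MUT lay away from the gene's ends. A region between genes (76200367 to 76201238), 40288 bp from the nearer end of Smad2 and 52238 bp from Zbtb7c, was 476, 327, 345 and 271 bp wide in WT and 792, 814, 764 and 506 bp in the MUT libraries (log2 1.01, SE 0.186, limma adjusted p = 0.181). A second (76215654 to 76216192) was 423, 426, 345 and 411 bp wide in WT and 527, 492, 498 and 441 bp in the MUT libraries (log2 0.27, limma adjusted p = 0.359). A region in the gene body (76278297 to 76278562) had peaks of 266, 211, 200 and 200 bp in the 4 MUT libraries and none in WT. These peaks were at percentiles of 33.9, 23.1, 16.4 and 20.9 of the MUT lists, and 200 bp is the narrowest width in any list. In the regions between genes, every MUT value lay above every WT value. In the body region this follows from the lack of any WT peak. By contrast, the peak at the gene's end (76241044 to 76242468) was 1333 to 1400 bp wide in WT and 1157 to 1383 bp in MUT. With peaks linked only within 10 kb, which leaves out those 3 regions and others deeper in the gene body, the difference at Smad2 turned to -0.067 (limma adjusted p = 0.840).

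Score percentiles did not overlap between the genotypes at 9 of the 67 regions of the 10 genes with a peak in every library, 7 higher in MUT (7.59% of all such regions) and 2 lower (5.21%). Smad2 held 2 of them, Smad3 4 and Tgfbr2 3. At the region beginning at 76215654 they were 56.0, 44.5, 41.9 and 40.1 in WT and 77.1, 82.3, 79.4 and 70.8 in MUT. At a region in the gene body (76259541 to 76260085), whose widths overlapped (415 to 459 bp in WT and 407 to 538 bp in MUT), they were 82.2, 75.6, 80.9 and 74.9 in WT and 87.3, 91.1, 92.6 and 84.5 in MUT. At the most distant region they overlapped, at 17.6 to 56.9 in WT and 40.2 to 67.7 in MUT. Percentiles come from lists of different lengths and were not tested between groups.

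**Figure D4:**
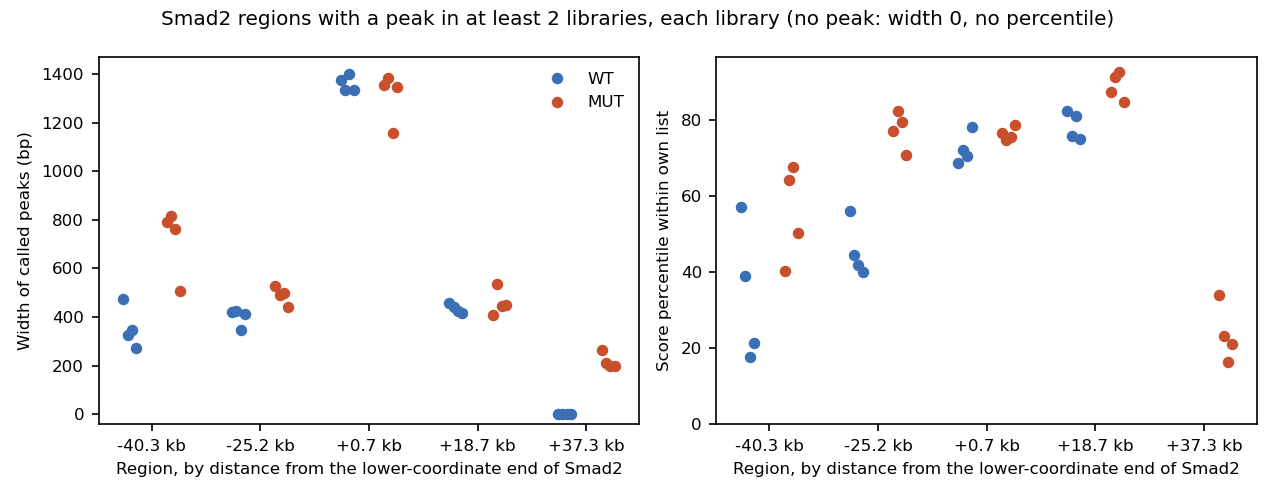
Width in bp (left) and score percentile within its own list (right) of the 5 Smad2 regions with a peak in at least 2 libraries, each point 1 library, WT blue and MUT orange. The regions between genes separate by width, the region called only in MUT does so by definition, and the region at the gene's end does not.

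Smad3 (63646766 to 63757994 on chromosome 9) encodes the other receptor-activated SMAD of TGF-beta. Its 26 regions summed to 9762, 9901, 9635 and 9589 bp in WT and 10116, 10608, 10047 and 9728 bp in MUT. The difference after scaling was small (log2 0.02, 95% interval -0.05 to 0.08, limma adjusted p = 0.857), but 0.18 within 10 kb (adjusted p = 0.406) and 0.70 with the upper 50% of each list (0.169). Upstream of the start site, 2 regions did not overlap between the groups. The nearer, 1308 bp upstream (63759001 to 63759604), was 504, 495, 535 and 524 bp wide in WT and 566, 604, 566 and 567 bp in the MUT libraries (log2 0.14, SE 0.0472, limma adjusted p = 0.405). The farther, 18960 bp upstream (63776758 to 63777149), was 319, 282, 295 and 216 bp wide in WT and 363, 367, 370 and 352 bp in the MUT libraries (log2 0.38, SE 0.110, limma adjusted p = 0.349). Its percentiles were 26.6 to 51.9 in WT and 56.1 to 81.4 in MUT. The peak over the Smad3 start site (63757764 to 63758665) was 854 to 900 bp wide in WT and 854 to 880 bp in MUT, at percentiles of 44.3 to 49.6 and 38.9 to 40.3.

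Smad4 (chromosome 18, 73634790 to 73703791) encodes the partner shared by TGF-beta and BMP signals. Linked length was 1803, 1934, 1889 and 1851 bp in WT and 2316, 2645, 2002 and 1322 bp in the MUT libraries (log2 0.06, 95% interval -0.26 to 0.38, limma adjusted p = 0.903). MUT 29 was below, and the other 3 MUT libraries above, every WT library. A region outside the gene (73622712 to 73623459) moved with that spread: it was 320, 284, 238 and 433 bp wide in WT, 650, 607 and 592 bp in MUT 26, 27 and 28, and not called in MUT 29. At the other end of the gene (73703091 to 73704324) the region was 1130 to 1188 bp wide in WT and 1013 to 1214 bp in MUT.

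Among the inhibitors, Smad7 (chromosome 18, 75367365 to 75395935) measured 6344, 5958, 5871 and 6081 bp in WT and 5949, 6272, 6028 and 5489 bp in the MUT libraries (log2 -0.07, limma adjusted p = 0.506). The gene encodes an inhibitor that the pathway itself induces. Its body held the strongest Smad7 region (75387307 to 75387923, mean percentile 91.8), which was 509 to 593 bp wide in WT and 518 to 617 bp in MUT.

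Ski (chromosome 4, 155154075 to 155222535), the gene of a SMAD co-repressor, measured 7148, 7362, 7253 and 6561 bp in WT and 7270, 7847, 7671 and 6701 bp in the MUT libraries (log2 0.02, 95% interval -0.05 to 0.09, limma adjusted p = 0.871). Its RefSeq promoter window was not under a peak in any library. The nearest upstream region (155222979 to 155223811) had its centre 860 bp before the start site and was 773 to 808 bp wide in WT and 814 to 825 bp in MUT, which overlapped once scaled for list size. The strongest region of all 10 genes was in the Ski body (155207682 to 155208351, mean percentile 92.9). Skil (chromosome 3, 31095058 to 31122923), which encodes the related co-repressor SnoN, measured 1486, 1478, 1457 and 1491 bp in WT and 1637, 1460, 1789 and 1419 bp in the MUT libraries (log2 0.04, limma adjusted p = 0.863). Both its regions lay at 1 gene end, and WT libraries were closer together than MUT libraries.

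Region by region, 67 regions of the 10 genes could be tested for width. With limma 0 passed (lowest adjusted p = 0.170), beside 0.0754% of all regions tested, and 10 had an unadjusted p under 0.05 (7 wider and 3 narrower in MUT), beside 9.4% of all. Of the 67, 5 did not overlap and were wider in MUT (2.6% of all regions) and 3 were narrower (3.24%), by widths scaled for list size. The wider regions were the 2 of Smad2 between genes, the 2 upstream of Smad3 and 1 in the Ski body (155163203 to 155164098, 643 to 737 bp in WT and 734 to 880 bp in MUT, log2 0.20). The narrower were those of Bmpr1a, of the Tgfb1 start (log2 -0.075) and 1 in the Ski body (155200630 to 155201754, log2 -0.045). The median log2 difference was -0.0098 over the 67 and -0.0077 over all regions tested. With regions in at least 2 libraries and a pseudocount of 200 bp, 4 regions passed: the Bmpr1a region (-0.68, limma adjusted p = 0.0183), the first Smad2 region (0.69, 0.0476), the Smad2 body region (1.05, 0.0126) and the small Tgfbr1 region (1.08, 0.00799). The last 2 are at 0 in every WT library and entered this fit only through MUT, so their p-values add nothing to their presence in 4 of 4 MUT libraries. In that fit 0.915% of 50044 regions passed.

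By presence, 2 of the 87 consensus regions were called in 4 of 4 MUT and 0 of 4 WT libraries, at Tgfbr1 and in the Smad2 body, and 0 the reverse. The shares over all consensus regions were 0.583% and 0.178%, but the genes were chosen with a result at Tgfbr1 known. By Fisher's exact test each of the 2 regions had an unadjusted p of 0.0286, the smallest that 4 against 4 libraries allow. After adjustment 0 of all 50044 regions passed, and 381 had an unadjusted p under 0.05.

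The rest of the pathway was taken as 85 further genes. Of these, 75 could be tested, and 10 (Itgb6, Inha, Inhbb, Bmp4, Mstn, Smad9, Nog, Chrd, Grem1 and Dcn) had no linked peak in any library. With limma 2 genes passed as higher in MUT and 0 as lower, beside 0.442% and 0.232% of all genes tested. Of the 75, 8 had an unadjusted p under 0.05, beside 11.2% of all genes tested. The median log2 difference was 0.0051 over the 75, 0.030 over the 10 genes above and -0.019 over all genes tested. Groups that do not overlap were found at 4 of the 75, all higher in MUT, beside 3.04% (higher) and 3.7% (lower) of all genes tested. These were Crebbp, Map3k7, Ltbp1 and Lefty1. At Ltbp1 and Lefty1 the lack of overlap follows from the lack of any WT peak, so the count shows no trend of the list. The list was written with the result at Lefty1 known.

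The 2 genes that passed were listed at 0 in every WT library and entered the test only through the MUT libraries, as did 24 of the 63 genes past the threshold as higher in MUT. Their p-values rest on constant zeros plus the pseudocount and are given as a description. Ltbp1, which encodes a protein that holds latent TGF-beta in the matrix, had 220, 401, 320 and 200 bp in the MUT libraries (limma adjusted p = 0.0348). Its region (chromosome 17, 75369475 to 75369969) lay in the gene body. Lefty1, an antagonist of Nodal signalling, had 567, 939, 940 and 212 bp in the MUT libraries (limma adjusted p = 0.0310). Its MUT-only region (chromosome 1, 180922292 to 180922698) lay between genes, 12527 bp from Lefty1. With a library left out, Ltbp1 passed in 0 of 8 fits (adjusted p up to 0.133) and Lefty1 in 1 (up to 0.0972).

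Among branches outside the SMADs, all 7 genes were tested and 0 passed. Map3k7, the gene of the kinase TAK1, measured 1596, 1645, 1365 and 1686 bp in WT and 2425, 2712, 2383 and 1854 bp in MUT, with no overlap (log2 0.48, SE 0.0854, limma adjusted p = 0.0586). Its MUT-only region (chromosome 4, 32062593 to 32063051) lay between genes, 39352 bp from Map3k7, and was strong, at percentiles of 82.0 to 95.3 of the MUT lists. Mapk14, which encodes p38 alpha, averaged 3389 ± 401 bp in the WT and 4047 ± 732 bp in the MUT libraries (SD, n = 4; limma adjusted p = 0.525) and a weak MUT-only region at a mean percentile of 2.15. Linked length was 2944 ± 253 and 3038 ± 210 bp at Tab2, the gene of a TAK1 adaptor, and 2308 ± 105 and 2355 ± 36.7 bp at the kinase gene Rock1 (WT and MUT; SD, n = 4).

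Among SMADs and their partners, 0 of 11 tested genes passed. Crebbp, which encodes a coactivator of SMAD complexes, measured 1227, 1220, 1142 and 1191 bp in WT and 1402, 1505, 1384 and 1384 bp in MUT, with no overlap (log2 0.18, limma adjusted p = 0.179). Its MUT-only region (chromosome 16, 4173073 to 4173304) lay in the gene body. Linked length was 4932 ± 237 and 5294 ± 471 bp at Trim33, 5594 ± 160 and 5880 ± 662 bp at Foxo1, and 2094 ± 187 and 2137 ± 534 bp at the BMP transducer gene Smad1 (WT and MUT; SD, n = 4).

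Among receptors, 0 of 10 passed. Tgfbr3, the co-receptor betaglycan, had 3450 ± 447 and 3612 ± 366 bp, Acvr1c 1785 ± 179 and 1574 ± 234 bp, and the type II BMP receptor gene Bmpr2 1673 ± 327 and 1594 ± 358 bp (WT and MUT; SD, n = 4).

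Among ligand and latency genes, 1 of 18 tested (Ltbp1) passed. Nrros, which anchors latent TGF-beta on leukocytes, had 2590 ± 158 and 2727 ± 378 bp, the integrin gene Itgav 2136 ± 154 and 2140 ± 67.9 bp, and the protease gene Furin 1873 ± 226 and 2029 ± 191 bp. Among inhibitors and ubiquitin control genes, 1 of 17 tested (Lefty1) passed. Nedd4l had 4875 ± 152 and 4899 ± 385 bp, Pmepa1 4188 ± 275 and 4761 ± 615 bp, Tgif1 2318 ± 215 and 2532 ± 414 bp, and Sin3a, with a weak MUT-only region at a mean percentile of 1.04, 1546 ± 9.76 and 1751 ± 26.2 bp (WT and MUT; SD, n = 4). Once scaled for list size the groups overlapped at Sin3a (log2 0.13, limma adjusted p = 0.367).

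Among genes that TGF-beta or BMP signals are known to regulate, 0 of 12 passed and 0 had an unadjusted p under 0.05 (11.2% of all genes tested). Linked length was 4591 ± 217 and 4602 ± 432 bp at Cd9, 4122 ± 211 and 4090 ± 344 bp at Myc, and 3196 ± 222 and 3254 ± 302 bp at Tnfsf10, the gene of TRAIL (WT and MUT; SD, n = 4).

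Over the 85 further genes, 6 of 283 consensus regions were called in 4 MUT and 0 WT libraries, and 0 the reverse. The shares over all consensus regions were 0.583% and 0.178%. They are no independent yardstick, because the list was written with the result at Lefty1 known. Mean percentiles of the 6 regions were 87.8 at Map3k7, 25.9 at Crebbp, 21.6 at Ltbp1, 21.3 at Lefty1, 2.15 at Mapk14 and 1.04 at Sin3a.

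**Figure D5:**
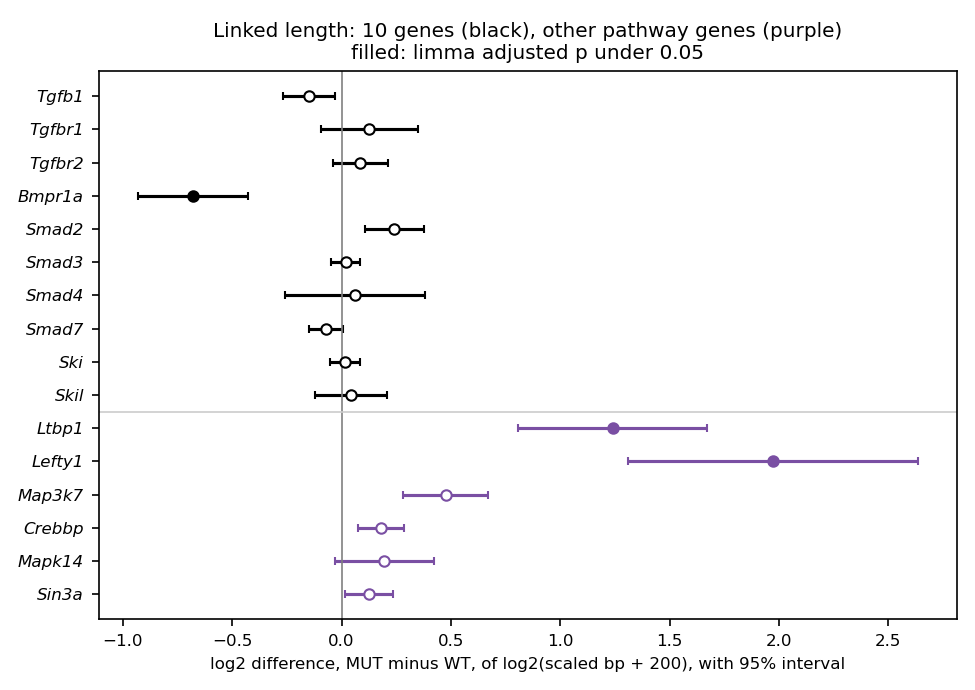
Log2 difference of linked length, MUT minus WT, on the log2(scaled bp + 200) scale with its 95% interval, for the 10 genes (black) and the 6 further genes with a region called only in MUT (purple). The peaks by which those 6 were picked count in the plotted length, so positive differences are partly built in. Other further genes, some with negative differences, are not plotted. Filled points passed the limma test over 14254 genes: Bmpr1a (-0.68) to the left, and Ltbp1 and Lefty1, listed at 0 in WT, to the right at sizes that depend on the pseudocount.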

How the data were processed

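ATAC-seq peak lists of 8 libraries (4 WT, 4 MUT, 1 mouse each) were used, 1 list per library and not pooled. Each deposited list gives a position and an unnamed positive score per peak, of unstated meaning. The score was used only within its own list. The submitters' processing notes name mm10 and GRCm38 as the build and list Trimmomatic, Bowtie2 (version 2.3.4.1), DESeq2 and DiffBind (version 3.0.12) without saying what each did. How peaks were called, at what threshold, and whether reads were shifted for the transposase is not given in the sources used here. Peaks were 200 to 3680 bp wide.

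Genes came from a RefSeq table of GRCm38.p6. Regions are peaks of all lists joined where they overlap by 1 bp or more. Linked length per gene (peaks in at least 2 libraries) was scaled to the median library total and compared on log2(bp + 200) by the two-sided moderated test of limma 3.58.1, with a trend. Changes at genes with few bp come out smaller on that scale than they are. Region width was tested likewise on log2(bp) over regions in all 8 libraries, and presence with Fisher's exact test. Adjusted p-values are Benjamini-Hochberg values over all genes or regions tested, with a threshold of 0.05. Lengths printed in bp are not scaled, and non-overlap was read from scaled values. The 10 genes and the lists were chosen with earlier results of these data known, those at Bmpr1a, Tgfbr1 and Lefty1 among them. Named genes were the 10, and of the pathway list those past the threshold, with a region in 1 genotype only or with no overlap, plus the 3 with the most linked length per role. Other regions were named after their values were seen, and promoter cover was computed later without a test.

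On simulated data, limma recovered 53% of planted changes of log2 0.5 and 87% of log2 1 among 14254 genes, and 9.09% of its calls were false. Python 3.11.15 and R 4.3.3 were used.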

Additional observations from a re-analysis of the deposited data

Results flagged for a closer look

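In 2 of 36 groups of 4 libraries examined, 1 library stood apart from the other 3, where chance gives about 1 in 20. In the most distant Smad2 region, between genes and beginning at 76200367, MUT 29 was 506 bp wide against 764 to 814 bp in the other MUT libraries, and still above every WT library. In the region 1308 bp upstream of Smad3, MUT 27, the longest list, was 604 bp wide against 566 to 567 bp in the others.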

How the results depend on the processing

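The count of the 10 genes past the threshold was 1 as reported and with pseudocounts of 50 and 1000 bp, without the filter and with the gene of the merged region. It was 0 with equal numbers of peaks, within 10 kb, without scaling, with the upper 50% of each list and with the strongest peak of each region (added after the data were seen), and 0 to 1 with a library left out. At Bmpr1a the difference stayed negative in all 17 alternatives. The count of all genes past the threshold was 96, 41 within 10 kb and 22 to 80 with a library left out. The count of regions of the 10 genes past the width test was 0, but 4 with regions in at least 2 libraries. Regions only in MUT numbered 2, 1 with equal numbers of peaks and 0 with the upper 50% of each list. Signs turned at genes that did not pass: with equal numbers of peaks at Tgfbr1 (-0.027), Smad3 (-0.0071), Skil (-0.13) and Sin3a (-0.059), with the upper 50% at Tgfbr1 (-0.0087), Skil (-0.11), Crebbp (-0.26) and Sin3a (-0.017), within 10 kb at Smad2 (-0.067) and Crebbp (-0.012), with the strongest peak at Smad3 (-0.0012) and Skil (-0.023). With a library left out they turned at Smad4 (-0.012 without MUT replicate 26 and -0.026 without 27, range -0.026 to 0.21), Ski (-0.0041 without WT replicate 7, range -0.0041 to 0.029) and Skil (-0.0039 without MUT replicate 28, range -0.0039 to 0.11). Map3k7 passed with the gene of the merged region (limma adjusted p = 0.0496), the upper 50% (0.0317) and MUT 29 left out (0.0369). Within 10 kb its log2 difference fell from 0.48 to 0.21 (limma adjusted p = 0.507). Its adjusted p was 0.144 when lengths were not scaled. The other 7 fits with a library left out gave 0.0774 to 0.157 at Map3k7, and the remaining alternatives gave 0.0519 to 0.0642. Lefty1 did not pass within 10 kb (0.358) or with a pseudocount of 1000 bp (0.0638). With the upper 50% neither Ltbp1 nor Lefty1, and within 10 kb not Ltbp1, had enough peaks for a value. The cause was not tested, except that the 10 kb link leaves out the Smad2 regions over 10 kb away and the MUT-only region 39352 bp from Map3k7. No paired analysis was possible because the WT and MUT labels share no replicate number. Unknown depth limits what an absent peak shows.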
